A study of Homo sapiens with 24 samples.

Results

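Wnt ligands bind Frizzled receptors together with a second receptor at the cell surface, and the genes of these partners were read here in HepaRG cells, a line from a human hepatocellular carcinoma. The 10 genes are the co-receptors LRP5 and LRP6, the receptor kinases and pseudokinases ROR1, ROR2, RYK and PTK7, the R-spondin receptors LGR4, LGR5 and LGR6, and the ligand RSPO3. They were taken as every probe whose RefSeq transcript belongs to 1 of these genes, which gave 13 of the 50683 probes on the array, and 10 of the 20503 genes that could be named. RNA from 24 cultures was hybridised to 24 one-colour Agilent arrays, 3 for each of 8 conditions. Untransfected cells received no agent, mouse recombinant Wnt3a at 200 ng/ml, mouse FZD8_CRD at 300 ng/ml, or both. FZD8_CRD is the soluble Wnt-binding domain of a Frizzled receptor, and the study used it as a Wnt inhibitor. Its binding of the added Wnt3a was not measured in these cultures, and target genes in its presence are given below. Other cells were electroporated in suspension with 80 pmol of a control siRNA or of an siRNA against β-catenin, each without and with Wnt3a, so that transfected and untransfected cells also differ in that handling. Cells of all conditions were collected after 72 h in serum-free medium with albumin. The labels describe the triplicates as independent culture experiments, and the number of arrays limits the precision of every value. The 24 arrays lay on 3 slides of 8, with replicates 1, 2 and 3 of every condition on slides 1, 2 and 3. Each condition kept 1 position on every slide and all 12 Wnt3a arrays lay in slide row 2, so position and condition cannot be told apart. Between 58.3% and 66.5% of the spots of an array were well above background, and the 75th percentile of the intensity ran from 643 to 934.

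In the β-catenin branch of the pathway, LRP5 or LRP6 joins Frizzled and Wnt in one complex, is phosphorylated and draws Axin to the membrane, which spares β-catenin from destruction. ROR1, ROR2, RYK and PTK7 bind Wnts or their receptors through other extracellular domains and are best known from branches that do not need β-catenin, such as planar cell polarity. R-spondins bind LGR4, LGR5 or LGR6 and draw away the ubiquitin ligases RNF43 and ZNRF3, which otherwise remove Frizzled and LRP6 from the surface, and in the liver RSPO3 and LGR4 help to keep β-catenin signalling in the hepatocytes around the central vein.

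CTNNB1, which encodes β-catenin and is the target of the siRNA, was read first as a check of the labels. All values are log2 of the intensity over the 75th percentile of the same array, listed for slides 1, 2 and 3. CTNNB1 stood at 3.28, 3.27 and 3.57 in untreated cells, 3.40, 3.31 and 3.47 with Wnt3a, 3.22, 3.38 and 4.11 with FZD8_CRD, and 3.54, 3.98 and 3.89 with both. It stood at 3.35, 3.37 and 3.51 with control siRNA, and at 3.39, 3.62 and 3.67 when Wnt3a was added. With β-catenin siRNA it stood at 0.26, 0.35 and 0.52, and at 0.33, 0.52 and 0.77 with Wnt3a. The 6 arrays with β-catenin siRNA were the 6 lowest, the highest of them at 0.77 and the lowest of the other 18 at 3.22. CTNNB1 fell by 3.03 against control siRNA (limma adjusted p = 1.18e-09) and differed by -3.02 in the presence of Wnt3a (adjusted p = 7.75e-10).

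Of 8 target genes of the pathway, 7 could be tested, and TNFRSF19 passed the background test nowhere. With Wnt3a alone 4 of the 7 rose (AXIN2, LEF1, TCF7 and RNF43), and the same 4 rose after control siRNA, beside 5.30% and 1.89% of all genes called. After β-catenin siRNA limma called 0 of the 7 with Wnt3a, beside 0.0413% of all genes, and 1 had an unadjusted p under 0.05. With FZD8_CRD present 2 of the 7 rose with Wnt3a, RNF43 and TCF7, beside 7.96% of all genes called. TCF7, a transcription factor of the pathway, read -2.88, -2.50 and -2.37 in untreated cells and -0.93, -0.61 and -1.16 with Wnt3a, an increase of 1.68 (adjusted p = 0.00119). With β-catenin siRNA the TCF7 values were -3.29, -3.10 and -3.23 without and -2.53, -2.71 and -2.97 with Wnt3a. These 6 arrays were all below the 6 arrays of the control siRNA. With FZD8_CRD they were -2.95, -2.73 and -1.5 without and -0.68, -0.64 and -0.93 with Wnt3a, an increase of 1.64 (adjusted p = 0.00116). For a difference in the Wnt3a response between FZD8_CRD and no agent limma called 0 of the 7, beside 0.0705% of all genes. Of the 7, 1 had an unadjusted p under 0.05 there. Control siRNA against no transfection raised LEF1 and lowered AXIN2, beside 21.6% of all genes called. In the presence of Wnt3a it gave 0 calls of 7 beside 8.28%, with 2 at an unadjusted p under 0.05. With β-catenin siRNA against control siRNA, 4 of the 7 fell (LEF1, TCF7, RNF43 and ZNRF3), beside 10.2% of all genes called. In the presence of Wnt3a 5 fell, beside 9.88%. FZD8_CRD lowered AXIN2 by 0.60 (adjusted p = 0.000124) and RNF43 by 1.30 (adjusted p = 9.26e-08), and raised LEF1 by 1.00 (adjusted p = 3.42e-05) and SP5 by 0.19 (adjusted p = 0.0479). Together with Wnt3a it lowered AXIN2 and RNF43 and no other of the 7. Of all genes, FZD8_CRD called 41.3% without and 36.4% with Wnt3a.

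**Figure D1:**
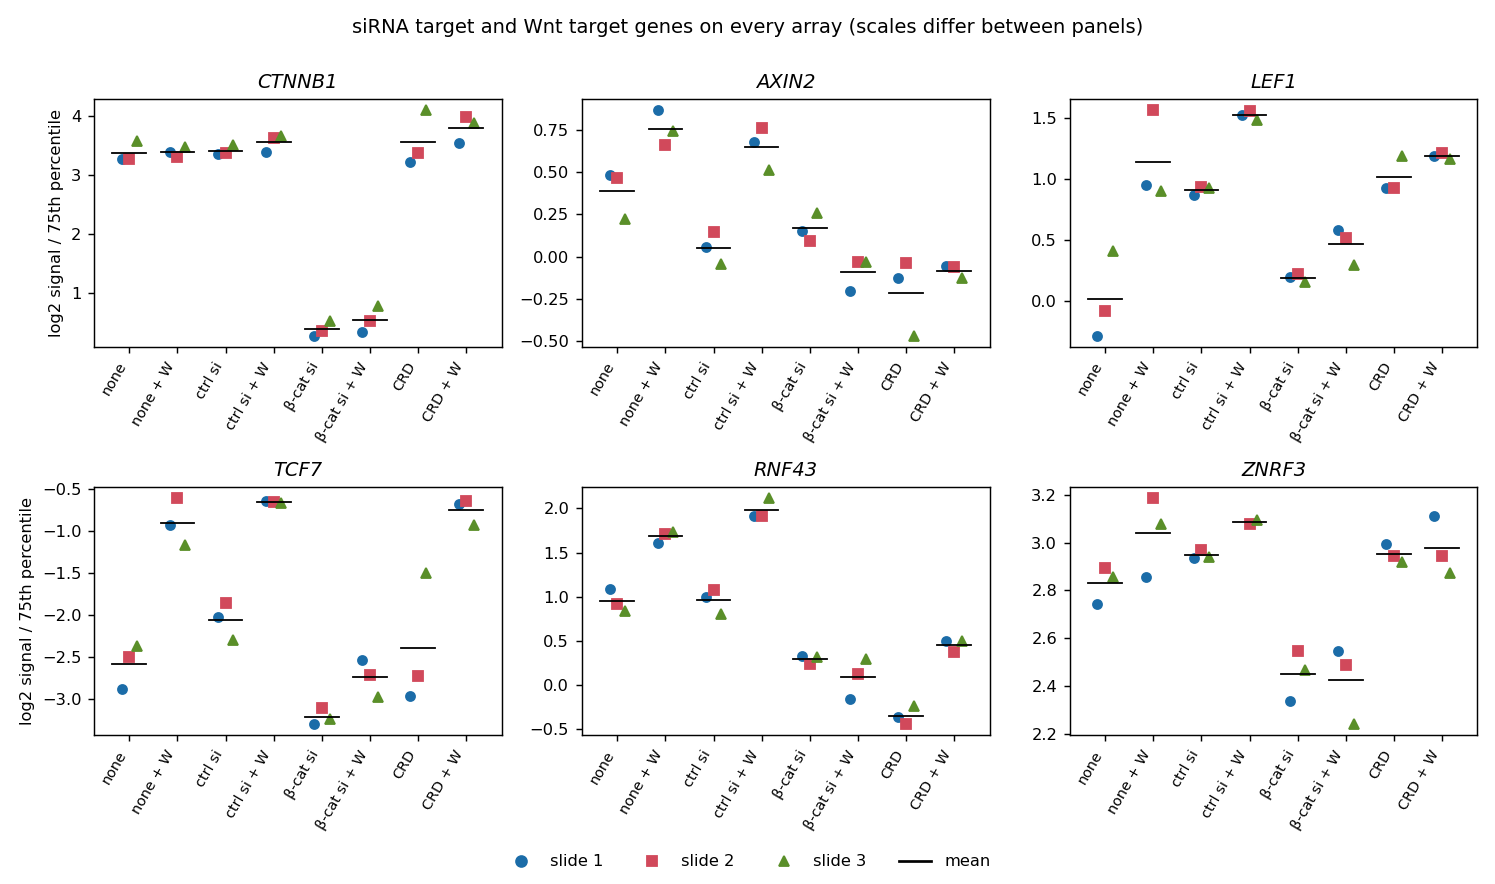
The siRNA target CTNNB1 and 5 target genes of the pathway on every array, as log2 signal over the 75th percentile of the array, by condition (W, Wnt3a; CRD, FZD8_CRD); symbols mark the slide and lines the mean of 3 arrays (2 for ZNRF3 with control siRNA and Wnt3a). CTNNB1 lies at or below 0.77 on the 6 arrays with β-catenin siRNA and at or above 3.22 on the other 18.

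The hepatic label was checked with 8 markers (ALB, APOA1, TTR, KRT8, KRT18, KRT19, SOX9 and HNF4A), and 8 of 8 were well above background on all 24 arrays. Their summed level, in multiples of the 75th percentile and with ALB the brightest, was 1473, 1210 and 886 in untreated cells, 1007, 697 and 973 with Wnt3a, 719, 633 and 810 with FZD8_CRD, and 842, 838 and 760 with both. In transfected cells it was 691, 662 and 621 with control siRNA, 542, 509 and 517 with control siRNA and Wnt3a, 861, 754 and 802 with β-catenin siRNA, and 571, 635 and 697 with β-catenin siRNA and Wnt3a. The mean of this sum was highest in untreated cells, and the 3 untreated arrays lay above every array with siRNA or FZD8_CRD but overlapped those with Wnt3a. This order was carried by ALB. Without ALB the sum was 604, 509 and 372 in untreated cells and 636, 639 and 572 with FZD8_CRD and Wnt3a. Of all genes tested, control siRNA called 21.6% without and 8.28% with Wnt3a, and FZD8_CRD 41.3% and 36.4%, beside which the marker counts are given. ALB, APOA1, TTR and HNF4A fell with control siRNA against untransfected cells, ALB by 1.65 (adjusted p = 0.000955). FZD8_CRD lowered 5 of the 8 against untreated cells (the same 4 and SOX9), ALB by 1.81 (adjusted p = 0.000109), and raised KRT19 by 0.36 (adjusted p = 0.00882). With Wnt3a present, FZD8_CRD lowered ALB, SOX9 and HNF4A of the 7 tested and raised KRT19 by 0.59 (adjusted p = 0.000202), with a list median of 0.18, and control siRNA lowered ALB alone, by 2.09 (adjusted p = 0.00169). Wnt3a raised APOA1 and TTR with FZD8_CRD present and called none of these markers elsewhere, and β-catenin siRNA raised ALB in the presence of Wnt3a and called none without it. With the slide as a block the markers called went from 0 to 1 with Wnt3a after control siRNA and from 1 to 3 with β-catenin siRNA and Wnt3a. They went from 4 to 5 with control siRNA, from 1 to 2 with control siRNA and Wnt3a, and from 6 to 7 with FZD8_CRD.

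Markers of other liver cells were read in the same way. Of 5 endothelial markers 4 were on all 24 arrays; KDR was the brightest, and the sum ran from 0.783 to 1.86 with FZD8_CRD and from 2.14 to 4.22 elsewhere. Its means were 3.716 in untreated cells, 2.842 with Wnt3a, 1.503 with FZD8_CRD and 0.8532 with both, and 3.151, 2.258, 3.591 and 3.34 with control siRNA, control siRNA and Wnt3a, β-catenin siRNA, and β-catenin siRNA and Wnt3a. Without KDR the sum lay between 0.175 and 0.290 on all 24 arrays. KDR spots marked as outliers count in these sums but not in the fit, which left no KDR value with FZD8_CRD, so that KDR was not tested there. TEK, above background on 5 of 24 arrays, was called higher with FZD8_CRD and Wnt3a than with either agent alone. The filter kept it through the group with both agents alone, so these calls are not read as a change. PECAM1 fell with β-catenin siRNA. Of 6 stellate or fibroblast markers 3 were on all 24 arrays and THY1 was on 0. ACTA2 was the brightest of them, and the sum had a mean of 11.2 ± 0.824 (SD, n = 3) in untreated cells, 16.5 ± 2.65 with Wnt3a, 13.4 ± 0.866 with FZD8_CRD and 21.7 ± 0.701 with both. It was 11.9 ± 0.633 with control siRNA, 15.6 ± 0.634 with control siRNA and Wnt3a, 10.8 ± 0.396 with β-catenin siRNA and 11.9 ± 0.386 with β-catenin siRNA and Wnt3a. COL1A1 rose by 1.86 with Wnt3a alone (adjusted p = 0.00399), by 2.19 after control siRNA (adjusted p = 0.00276) and by 2.65 with FZD8_CRD present (adjusted p = 0.000225). The medians over the 5 tested markers of this list were -0.14, -0.25 and 0.06, in the same order. ACTA2 rose with Wnt3a alone and with FZD8_CRD present. FZD8_CRD raised ACTA2 by 0.30 (adjusted p = 0.000624) and by 0.25 in the presence of Wnt3a (adjusted p = 0.003), where LRAT fell. Of 4 leukocyte markers 3 were on all 24 arrays, with CD68 the brightest. Their sum had means of 5.516 in untreated cells, 5.567 with Wnt3a, 3.56 with FZD8_CRD and 3.943 with both, and of 4.882, 5.061, 3.009 and 3.175 with control siRNA, control siRNA and Wnt3a, β-catenin siRNA, and β-catenin siRNA and Wnt3a. CD68 fell with FZD8_CRD and rose with Wnt3a in its presence, and CD14 fell with β-catenin siRNA by 1.12 (adjusted p = 0.000644) and by 1.30 in the presence of Wnt3a (adjusted p = 0.000127). The part that such shifts play in the values of the receptors was not tested, and in bulk RNA fewer cells of a kind and less RNA per cell cannot be told apart.

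Of the 10 genes, 8 were tested, through 10 probes that each passed the scanner's background test in all replicates of some condition. LGR5, the R-spondin receptor that marks stem cells in several epithelia, was read by 1 probe (A_23_P98974) that passed the background test on 0 of 24 arrays, with intensities from -1.93 to 9.20. Its RNA was not detectable at the sensitivity of these arrays. PTK7, a pseudokinase of the polarity branch, was read by A_24_P320545 and was above background on 4 of 24 arrays, each in a different condition. These were slide 1 with control siRNA and Wnt3a (-5.64), slide 1 with FZD8_CRD and Wnt3a (-5.74), slide 3 with β-catenin siRNA (-6.06) and slide 3 with FZD8_CRD (-5.24), against a detection floor of -6.13. RSPO3 had a second probe, A_23_P111402, above background on the slide 2 array with Wnt3a alone (-5.24) and nowhere else. Neither LGR5 nor PTK7 entered a comparison.

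**Figure D2:**
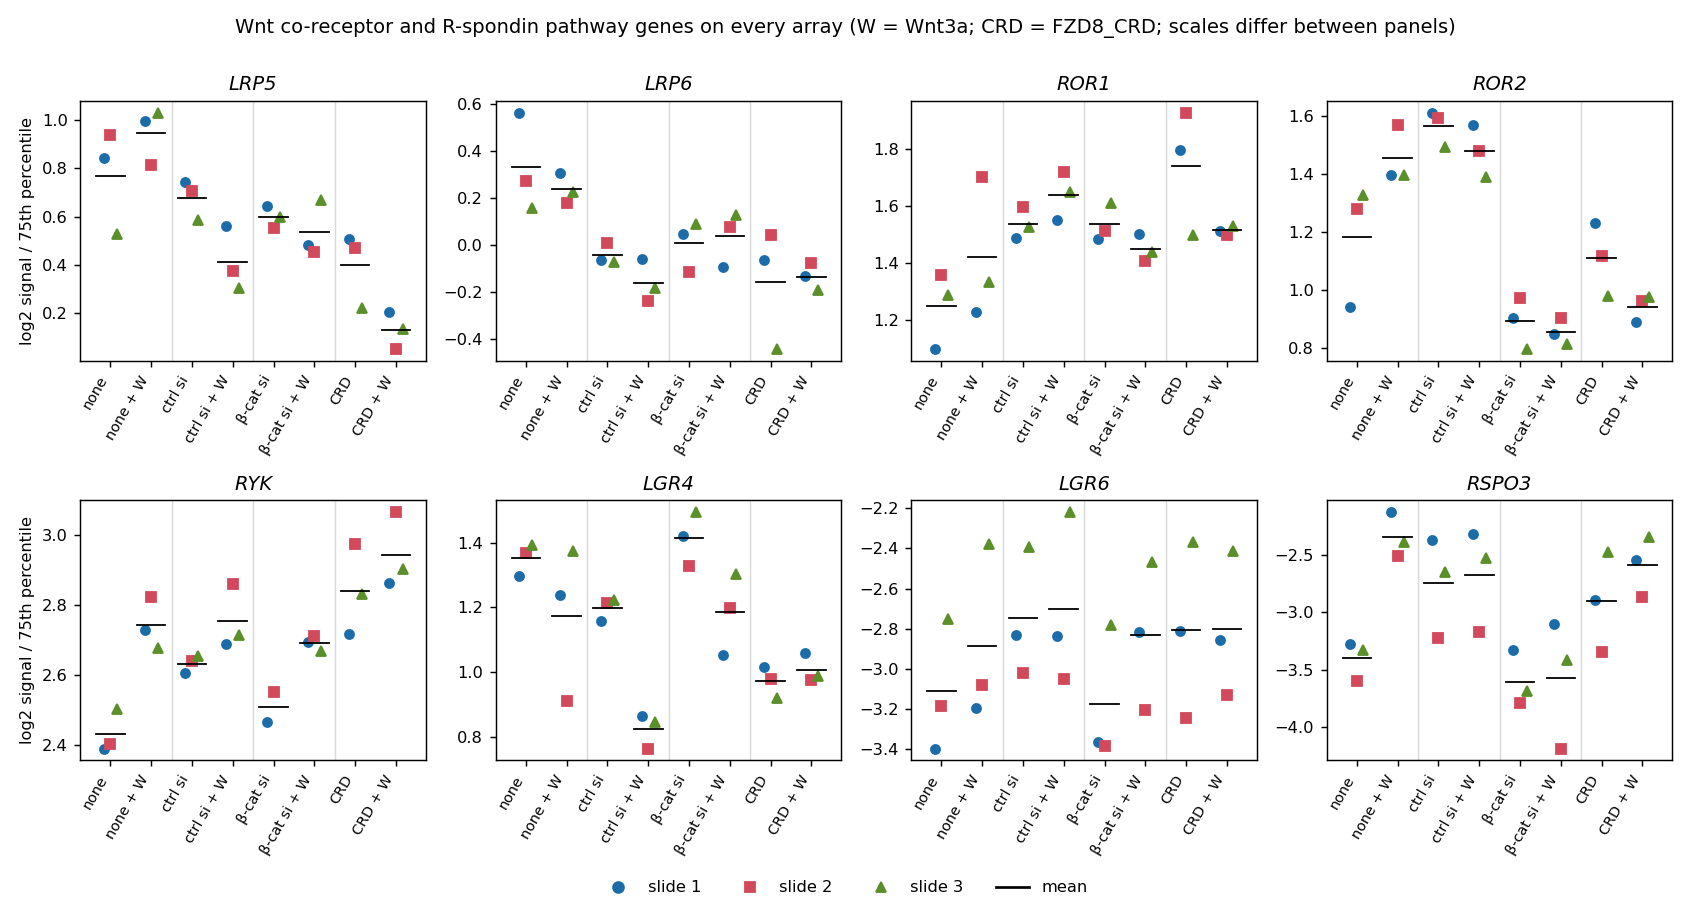
Each of the 8 tested genes on every array, as log2 signal over the 75th percentile of the array, by condition (W, Wnt3a; CRD, FZD8_CRD); symbols mark the slide and lines the mean of the condition, and scales differ between panels. ROR2 lies at or below 0.97 on the 6 arrays with β-catenin siRNA and at or above 1.39 on the 6 with control siRNA.

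The share of these genes called at an adjusted p under 0.05 was read against the share among all genes tested. With Wnt3a in untransfected cells 2 of 8 were called, RYK and RSPO3, both higher, beside 5.30% of 24601 genes, and the median difference over the 8 was 0.20 beside 0.01 over all genes. After control siRNA Wnt3a gave 1 call, LGR4, lower, beside 1.89% of all genes (medians -0.02 and 0.02). After β-catenin siRNA limma called 0 of 8 beside 0.0413%, and 2 had an unadjusted p under 0.05 (medians -0.00 and 0.03). With FZD8_CRD present Wnt3a gave 0 calls beside 7.96%, again with 2 at an unadjusted p under 0.05 (medians 0.01 and 0.02). The slide 3 array of FZD8_CRD stood apart from slides 1 and 2 of that condition. TCF7 read -1.50 there beside -2.95 and -2.73. The stellate sum without ACTA2 was 3.494 beside 1.596 and 1.565, and the endothelial sum 0.9805 beside 1.855 and 1.673. Without that array LRP5 and ROR1 were called lower with Wnt3a, and the cause was not tested.

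Control siRNA against no transfection gave 2 calls, ROR2 higher and LRP6 lower, beside 21.6% of all genes (medians 0.25 and -0.03). In the presence of Wnt3a it gave 3 calls, LRP5, LRP6 and LGR4, all lower, beside 8.28% (medians -0.16 and -0.02). The β-catenin siRNA against control siRNA gave 1 call, ROR2, lower, beside 10.2% (medians -0.10 and -0.03). In the presence of Wnt3a it gave 2 calls, ROR2 lower and LGR4 higher, beside 9.88% (medians -0.10 and -0.01). FZD8_CRD against untreated cells gave 5 calls, LRP5, LRP6 and LGR4 lower and ROR1 and RYK higher, beside 41.3% of all genes (medians 0.11 and -0.09). In the presence of Wnt3a it gave 4 calls, LRP5, LRP6 and ROR2 lower and RYK higher, beside 36.4% (medians -0.21 and -0.08). With the slide as a block the calls were 6 with control siRNA (beside 31.28% of all genes), 3 with β-catenin siRNA (16.09%) and 7 with FZD8_CRD (52.42%). They were 3 with Wnt3a alone (10.93%) and 3 with β-catenin siRNA and Wnt3a (14.69%), and unchanged in number elsewhere. These counts rest on 8 genes and their shares were not tested against those of all genes, so they are given as a description.

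The Wnt3a response was also compared between conditions. Between β-catenin siRNA and control siRNA limma called 0 of 8, beside 0.0207% of all genes, and 0 had an unadjusted p under 0.05. Between FZD8_CRD and no agent it called 0 of 8, beside 0.0705%, with 3 at an unadjusted p under 0.05, namely LRP5, ROR1 and ROR2. Comparisons that share a control are not independent: the 3 untreated arrays serve 4 of the 12, and so do the 3 arrays of Wnt3a alone.

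**Figure D3:**
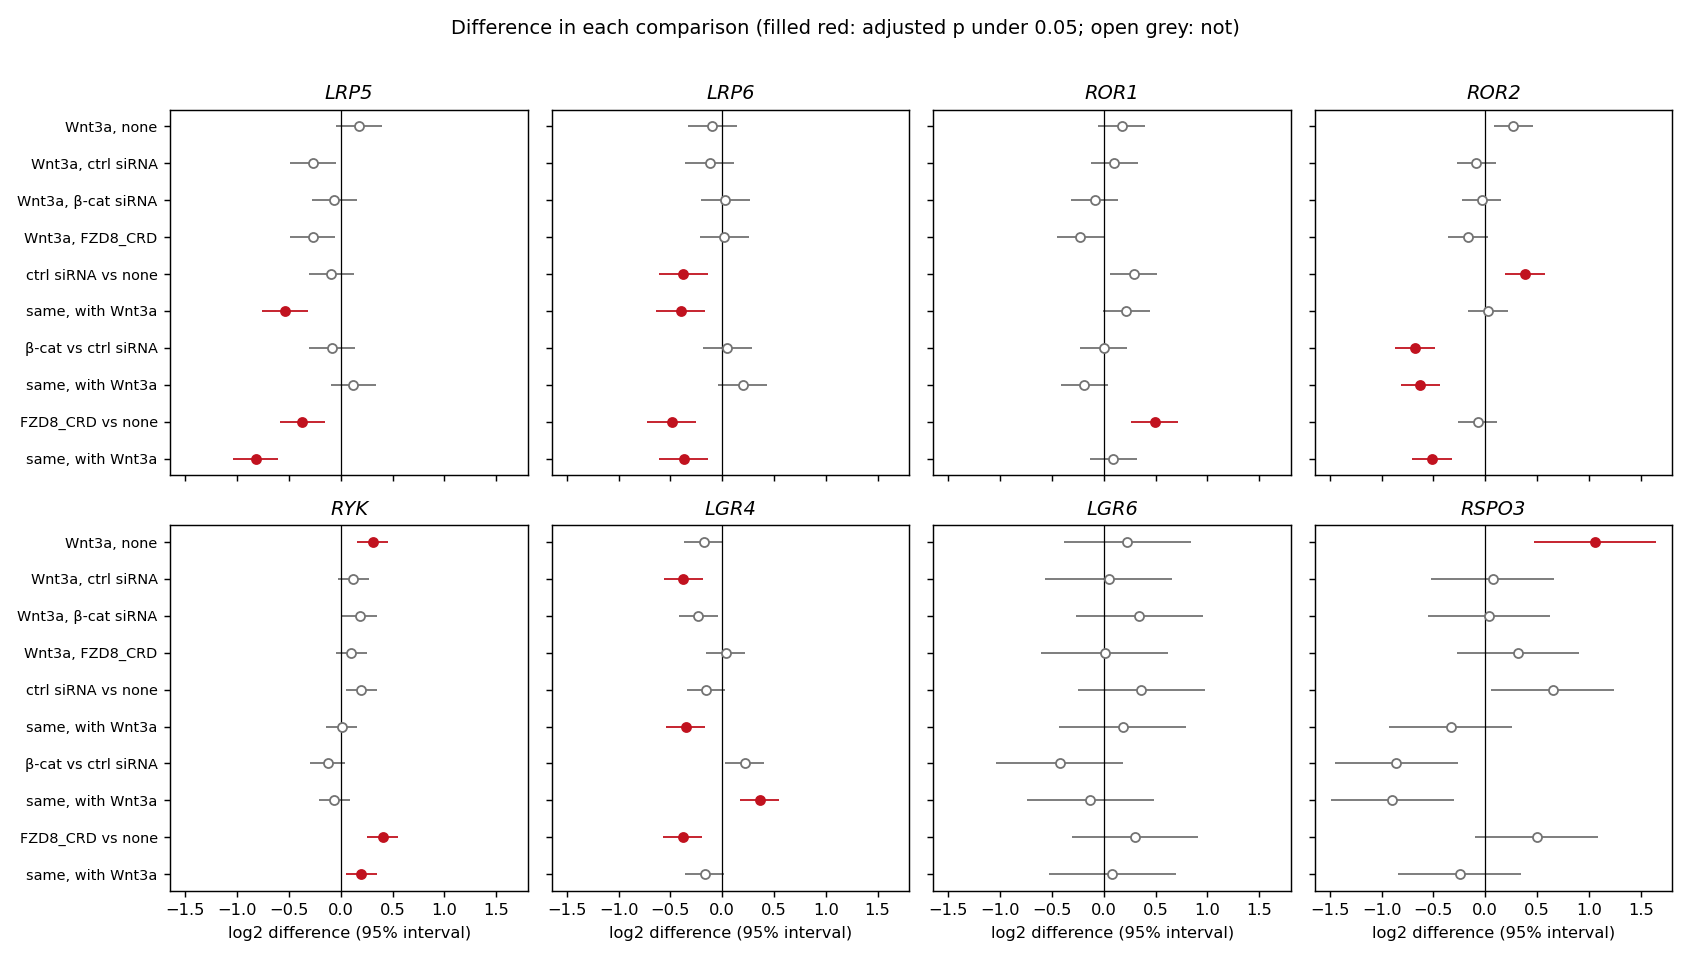
Log2 difference of each tested gene in 10 comparisons with its 95% interval from limma; filled red points have an adjusted p under 0.05 and open grey points do not. The lowest differences of ROR2 are those with β-catenin siRNA against control siRNA, -0.68 and -0.62, and that of LRP5 is with FZD8_CRD in the presence of Wnt3a, -0.82.

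Directions depend on the scale where the whole array shifts. When arrays were scaled to 7 spike-in RNAs in place of the 75th percentile, the median difference of all genes moved by -0.40 for Wnt3a in untransfected cells, -0.39 for FZD8_CRD, -0.28 for control siRNA and -0.20 for β-catenin siRNA with Wnt3a. It moved by 0.27 for control siRNA with Wnt3a, 0.16 for Wnt3a after control siRNA, -0.13 for Wnt3a after β-catenin siRNA, and by under 0.1 for the other comparisons of conditions. It moved by -0.29 and 0.30 for the differences between Wnt3a responses. On that scale the calls of LRP5, LRP6 and LGR4 with FZD8_CRD held, as did that of LRP5 with FZD8_CRD and Wnt3a, and the other calls of the 8 genes ended. The study's methods called genes at an unadjusted p under 0.01 and a fold above 1.5 or below 0.7. By those thresholds the calls that held were LRP5 with FZD8_CRD and Wnt3a and with control siRNA and Wnt3a, ROR2 with β-catenin siRNA without and with Wnt3a, and RSPO3 with Wnt3a alone. All changes below are relative to the 75th percentile.

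LRP5, a co-receptor of the β-catenin branch, was read by A_23_P1505. It stood at 0.84, 0.94 and 0.53 in untreated cells, 1.00, 0.82 and 1.03 with Wnt3a, 0.51, 0.47 and 0.22 with FZD8_CRD, and 0.20, 0.05 and 0.13 with both. In transfected cells it stood at 0.74, 0.71 and 0.59 with control siRNA, 0.56, 0.37 and 0.30 with control siRNA and Wnt3a, 0.64, 0.55 and 0.60 with β-catenin siRNA, and 0.48, 0.45 and 0.67 with β-catenin siRNA and Wnt3a. The 3 arrays with FZD8_CRD and Wnt3a were the lowest of the 24, and all 3 arrays with FZD8_CRD lay below all 3 untreated ones. In the order of means LRP5 ran from Wnt3a (0.95 ± 0.12, SD, n = 3) through untreated cells (0.77 ± 0.22), control siRNA (0.68 ± 0.08), β-catenin siRNA (0.60 ± 0.05), β-catenin siRNA with Wnt3a (0.54 ± 0.12), control siRNA with Wnt3a (0.41 ± 0.13) and FZD8_CRD (0.40 ± 0.16) to FZD8_CRD with Wnt3a (0.13 ± 0.08). Of the 7 steps in this order 2 exceeded the pooled SD of 0.13, the highest and the lowest, and the ranges at the highest step overlapped.

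With FZD8_CRD LRP5 fell by 0.37 (95% interval -0.59 to -0.15, adjusted p = 0.00764), with -0.33, -0.47 and -0.31 on slides 1, 2 and 3. With Wnt3a present FZD8_CRD lowered it 1.76-fold, a difference of -0.82 (-1.04 to -0.60, adjusted p = 8.89e-06), with -0.79, -0.77 and -0.90 on the slides. This call held in all 23 alternatives, with differences from -0.91 to -0.78. The Wnt3a response itself was 0.18 without and -0.27 with FZD8_CRD, neither called, and the difference between them, -0.45 (-0.76 to -0.14), did not pass the test (adjusted p = 0.195). Without the slide 3 array of FZD8_CRD that difference was -0.54 and was called (adjusted p = 0.0293), as was the response of -0.36 with FZD8_CRD (adjusted p = 0.0248, and 0.0111 without slide 3 as a whole). LRP5 also fell by 0.54 with control siRNA in the presence of Wnt3a (-0.76 to -0.32, adjusted p = 0.00596), and its differences with β-catenin siRNA, -0.08 and 0.12, were not called. The call with FZD8_CRD alone ended without the slide 2 untreated array (-0.29, adjusted p = 0.0524) and in a fit of the 6 arrays compared (adjusted p = 0.101), and that with control siRNA and Wnt3a ended with spike-in scaling (-0.26, adjusted p = 0.680) and in such a fit (adjusted p = 0.186). Without slide 1 or 2 both ended as well (adjusted p = 0.0786 and 0.121 with FZD8_CRD, 0.1445 and 0.0513 with control siRNA and Wnt3a), and the study's thresholds ended the first. Over their alternatives the adjusted p ran from 0.000741 to 0.121 and from 0.00143 to 0.680. Of the hepatic markers ALB, SOX9 and HNF4A fell and KRT19 rose in both comparisons with FZD8_CRD, APOA1 and TTR fell without Wnt3a, and ALB fell with control siRNA and Wnt3a. ACTA2 was higher with FZD8_CRD without and with Wnt3a, CD68 was lower without Wnt3a, and LRAT was lower in the presence of Wnt3a. TEK was called higher there, in the group through which the filter kept it. The endothelial sum, carried by KDR, was lower with FZD8_CRD in both (3.716 to 1.503, and 2.842 to 0.8532 with Wnt3a). The part of these markers in the LRP5 differences was not tested.

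LRP6, the other co-receptor, was read by A_33_P3306948. It stood at 0.56, 0.27 and 0.16 in untreated cells, 0.31, 0.18 and 0.23 with Wnt3a, -0.06, 0.04 and -0.44 with FZD8_CRD, and -0.13, -0.08 and -0.19 with both. It stood at -0.06, 0.01 and -0.07 with control siRNA, -0.06, -0.24 and -0.18 with control siRNA and Wnt3a, 0.05, -0.11 and 0.09 with β-catenin siRNA, and -0.09, 0.08 and 0.13 with β-catenin siRNA and Wnt3a. The 6 arrays of untransfected cells without FZD8_CRD were the 6 highest. The means of untreated cells (0.33 ± 0.21) and Wnt3a (0.24 ± 0.06) led the order, and the step from them to β-catenin siRNA with Wnt3a (0.04 ± 0.12) was the single one above the pooled SD of 0.14. Below it β-catenin siRNA (0.01 ± 0.11), control siRNA (-0.04 ± 0.04), FZD8_CRD with Wnt3a (-0.13 ± 0.06), FZD8_CRD (-0.15 ± 0.25) and control siRNA with Wnt3a (-0.16 ± 0.09) followed with smaller steps.

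LRP6 fell by 0.49 with FZD8_CRD (95% interval -0.72 to -0.25, adjusted p = 0.00173) and by 0.37 in the presence of Wnt3a (-0.61 to -0.14, adjusted p = 0.0136). It fell by 0.37 with control siRNA (-0.61 to -0.14, adjusted p = 0.0222) and by 0.40 in the presence of Wnt3a (-0.63 to -0.16, adjusted p = 0.0343). LRP6 was lower on 3 of 3 slides in each of these 4 comparisons, and its groups did not overlap in any of them. With Wnt3a and with β-catenin siRNA its differences lay between -0.12 and 0.20, and none was called. Direction held in all alternatives of the 4 calls, but each call ended in some of them, among them the study's thresholds. Spike-in scaling ended them with FZD8_CRD and Wnt3a (-0.46, adjusted p = 0.330), with control siRNA (-0.66, adjusted p = 0.149) and with control siRNA and Wnt3a (-0.13, adjusted p = 0.845). A fit of the 6 arrays compared ended those with FZD8_CRD alone (adjusted p = 0.0758), with control siRNA (adjusted p = 0.0803) and with control siRNA and Wnt3a (adjusted p = 0.186). The call with control siRNA ended without the slide 1 untreated array (-0.26, adjusted p = 0.157) and without the slide 1 or slide 3 array of control siRNA (adjusted p = 0.0659 and 0.0661). With Wnt3a present that call ended without the slide 1 or 3 array of Wnt3a (adjusted p = 0.163 and 0.0724), without the slide 2 or 3 array of control siRNA with Wnt3a (adjusted p = 0.154 and 0.0989) and with no filter on dim probes (adjusted p = 0.0574). With FZD8_CRD and Wnt3a it ended without the slide 1 array of Wnt3a (-0.34, adjusted p = 0.0585). Leaving out a whole slide ended the call with FZD8_CRD (slide 1, adjusted p = 0.0576), that with FZD8_CRD and Wnt3a (slides 1 and 2, adjusted p = 0.142 and 0.0638), that with control siRNA (slides 1 and 2, adjusted p = 0.405 and 0.115) and that with control siRNA and Wnt3a (any 1 slide, adjusted p from 0.0636 to 0.256). The adjusted p of these 4 calls reached at most 0.0758, 0.330, 0.405 and 0.845 over their 23 alternatives, in the order given above. ALB fell in all 4 of these comparisons, beside the other markers given above for each, and their part in the LRP6 differences was not tested.

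ROR2, a receptor kinase for Wnt5a and the member most clearly lower after β-catenin siRNA, was read by A_23_P158318, and its promoter is shown with that of RSPO3, the ligand that also read lowest there. A RefSeq promoter table on GRCh38.p14 held 8 of the 10 genes, all but LRP6 and LGR5. The letters CTTTG followed by AA, AT, TA or TT, which TCF/LEF factors bind, were searched on both strands in the 250 bases before the start, as was the core CTTTG alone, which every full match contains. The 8 genes have 11 windows there, 2 for PTK7 and 3 for LGR6. The full letters were in 0 of the 11 and in 12% of the 35116 windows of the table. The core was in 3 of the 11, 1 each of ROR2, LGR6 and RSPO3, which is 27.3% beside 42.1% of all windows. The LGR6 window holds it 187 and 169 bases before the start and is not shown, though the LGR6 mean also read lowest with β-catenin siRNA. A match is a description of letters and shows no binding. The windows are ROR2, chr9:91950229-91950478, minus strand, with the core 195 bases before the start, and RSPO3, chr6:127118421-127118670, plus strand, with the core on the opposite strand at 231. Both run 5′ to 3′ on the strand of the gene, and capitals mark the core.
ROR2: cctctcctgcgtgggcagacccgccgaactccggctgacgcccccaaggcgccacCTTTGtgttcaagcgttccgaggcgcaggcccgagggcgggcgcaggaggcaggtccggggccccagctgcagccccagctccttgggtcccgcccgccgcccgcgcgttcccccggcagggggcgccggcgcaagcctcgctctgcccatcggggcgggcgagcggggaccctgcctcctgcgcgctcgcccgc
RSPO3: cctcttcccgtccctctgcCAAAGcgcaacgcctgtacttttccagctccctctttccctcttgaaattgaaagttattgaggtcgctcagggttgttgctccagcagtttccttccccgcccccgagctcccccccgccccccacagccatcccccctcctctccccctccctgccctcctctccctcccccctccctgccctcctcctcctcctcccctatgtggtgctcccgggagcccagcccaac

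On the arrays ROR2 stood at 1.61, 1.59 and 1.49 with control siRNA, 1.57, 1.48 and 1.39 with control siRNA and Wnt3a, 0.90, 0.97 and 0.80 with β-catenin siRNA, and 0.85, 0.90 and 0.81 with β-catenin siRNA and Wnt3a. In untransfected cells it stood at 0.94, 1.28 and 1.33 without agent, 1.40, 1.57 and 1.40 with Wnt3a, 1.23, 1.12 and 0.98 with FZD8_CRD, and 0.89, 0.96 and 0.98 with both. All 6 arrays with β-catenin siRNA lay below all 6 with control siRNA. In the order of means control siRNA (1.57 ± 0.06), control siRNA with Wnt3a (1.48 ± 0.09) and Wnt3a (1.45 ± 0.10) lay within 1 pooled SD (0.11) of their neighbours. Untreated cells (1.18 ± 0.21) and FZD8_CRD (1.11 ± 0.13) followed after a step of 0.27. FZD8_CRD with Wnt3a (0.94 ± 0.05), β-catenin siRNA (0.89 ± 0.09) and β-catenin siRNA with Wnt3a (0.86 ± 0.04) formed the lowest level after a step of 0.17.

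β-catenin siRNA lowered ROR2 1.60-fold against control siRNA, a difference of -0.68 (95% interval -0.87 to -0.48, adjusted p = 7.62e-05), with -0.71, -0.62 and -0.70 on slides 1, 2 and 3. With Wnt3a present it lowered ROR2 1.54-fold, a difference of -0.62 (-0.82 to -0.43, adjusted p = 0.00012), with -0.72, -0.58 and -0.57 on the slides. Both calls held in 22 of 23 alternatives and ended with spike-in scaling, where the differences were -0.58 (adjusted p = 0.640) and -0.83 (adjusted p = 0.105). ROR2 was thus lower with β-catenin siRNA on every slide, with and without added Wnt3a. CD14 and DES fell in the same comparisons, as did PECAM1 without Wnt3a and COL1A1 with it. DES fell by 0.84 (adjusted p = 0.000242) and by 0.61 with Wnt3a (adjusted p = 0.0031). PDGFRB, above background on 7 arrays in all, was called lower without Wnt3a. The filter kept it through the control siRNA group alone, so this call is not read as a change. ALB rose with Wnt3a present. The endothelial sum, carried by KDR, was higher with β-catenin siRNA, 3.591 beside 3.151, and 3.34 beside 2.258 with Wnt3a, without overlap in either, and KDR itself was not called. The part of these markers was not tested.

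With Wnt3a in untransfected cells the main fit did not call ROR2, which was higher by 0.27 (0.08 to 0.46, adjusted p = 0.0862) on 3 of 3 slides, but 4 of 23 alternatives did. These were the slide as a block (adjusted p = 0.0496), the mean of both probes (0.42, adjusted p = 0.0393), and leaving out slide 3 (0.37, adjusted p = 0.0197) or its untreated array (0.34, adjusted p = 0.0290). With spike-in scaling the difference was -0.12 (adjusted p = 0.732). After control siRNA the Wnt3a difference of ROR2 was -0.09, after β-catenin siRNA -0.04 and with FZD8_CRD -0.17, none called. FZD8_CRD lowered ROR2 by 0.51 in the presence of Wnt3a (-0.70 to -0.32, adjusted p = 0.000211), lower on 3 of 3 slides, and without Wnt3a the difference was -0.07 (adjusted p = 0.553). The difference between the Wnt3a responses without and with FZD8_CRD, -0.44 (-0.71 to -0.17), did not pass the test (adjusted p = 0.155). It was called without slide 3 (-0.62, adjusted p = 0.0168), without its untreated array (-0.51, adjusted p = 0.0456) or the slide 3 array of FZD8_CRD (-0.50, adjusted p = 0.0222). Control siRNA raised ROR2 by 0.38 against untreated cells (0.19 to 0.57, adjusted p = 0.00501), with 0.67, 0.31 and 0.17 on the slides. That call ended in 5 alternatives: spike-in scaling (0.10, adjusted p = 0.840), a fit of the 6 arrays compared (adjusted p = 0.0735), the study's thresholds, and leaving out slide 1 (0.24, adjusted p = 0.2295) or slide 2 (0.42, adjusted p = 0.0791). The FZD8_CRD call with Wnt3a ended with spike-in scaling (-0.60, adjusted p = 0.165) and with the study's thresholds. Over the alternatives the adjusted p of the 2 calls reached 0.840 and 0.165. ALB and HNF4A fell in both comparisons. APOA1 and TTR fell with control siRNA, and with FZD8_CRD and Wnt3a SOX9 and LRAT fell and KRT19 and ACTA2 rose. The endothelial sum, carried by KDR, went from 2.842 to 0.8532 there. TEK was called higher there, in the group through which the filter kept it. The part of these markers was not tested.

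The second ROR2 probe, A_24_P101704, gave means of -2.24 ± 0.08 with control siRNA, -2.06 ± 0.44 with control siRNA and Wnt3a, -2.84 ± 0.20 with β-catenin siRNA and -2.70 ± 0.07 with β-catenin siRNA and Wnt3a. In untransfected cells its means were -3.18 ± 0.28 without agent, -2.61 ± 0.08 with Wnt3a, -2.75 ± 0.23 with FZD8_CRD and -2.74 ± 0.08 with both. It was lower with β-catenin siRNA by -0.60 (adjusted p = 0.0406) and by -0.65 with Wnt3a (adjusted p = 0.0256), and higher with control siRNA against untreated cells by 0.94 (adjusted p = 0.00111). Both ROR2 probes were thus called in the same direction in these 3 comparisons. With Wnt3a in untransfected cells the second probe was higher by 0.57 and was not called (adjusted p = 0.0704). For FZD8_CRD in the presence of Wnt3a the second probe gave -0.14 (adjusted p = 0.592) where the first was called. For FZD8_CRD against untreated cells the probes had opposite signs, -0.07 and 0.43, and neither was called (second probe, limma adjusted p = 0.0628). Across the 8 condition means the values of the probes had a Pearson r of 0.643, and across the 24 arrays 0.562.

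**Figure D4:**
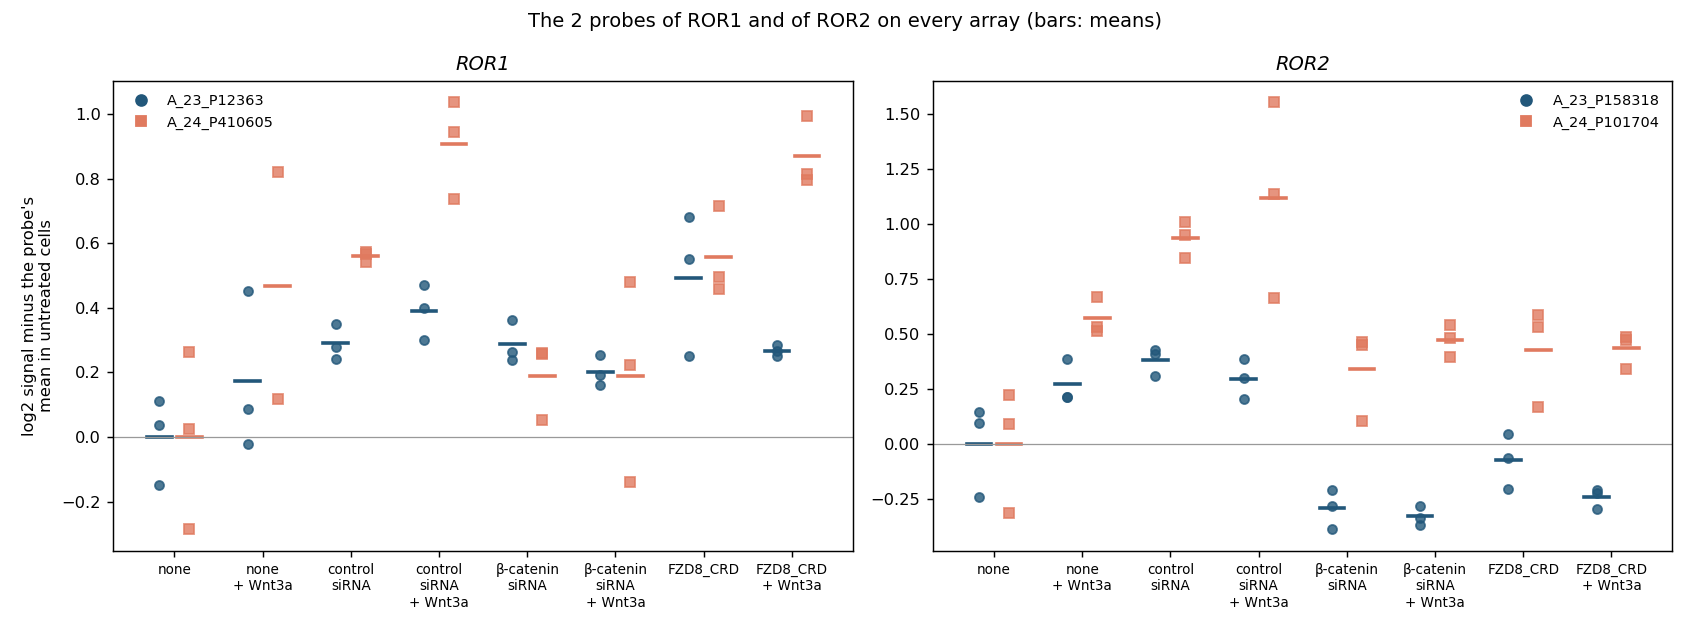
Both probes of ROR1 and of ROR2 on every array, as log2 signal minus the mean of the same probe in untreated cells, by condition; points are arrays and bars are means. For ROR2 both probes are lower with β-catenin siRNA than with control siRNA, by -0.68 and -0.60, while with FZD8_CRD and Wnt3a against Wnt3a they differ by -0.51 and -0.14.

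ROR1, the paralogue of ROR2, was read by A_23_P12363 on 10 spots. It stood at 1.1, 1.36 and 1.29 in untreated cells, 1.23, 1.70 and 1.33 with Wnt3a, 1.80, 1.93 and 1.5 with FZD8_CRD, and 1.51, 1.5 and 1.53 with both. It stood at 1.49, 1.60 and 1.53 with control siRNA, 1.55, 1.72 and 1.65 with control siRNA and Wnt3a, 1.49, 1.51 and 1.61 with β-catenin siRNA, and 1.5, 1.41 and 1.44 with β-catenin siRNA and Wnt3a. The 3 arrays with FZD8_CRD lay above the 3 untreated ones. The order of means ran from FZD8_CRD (1.74 ± 0.22) through control siRNA with Wnt3a (1.64 ± 0.09), control siRNA (1.54 ± 0.06), β-catenin siRNA (1.54 ± 0.07), FZD8_CRD with Wnt3a (1.51 ± 0.02), β-catenin siRNA with Wnt3a (1.45 ± 0.05) and Wnt3a (1.42 ± 0.25) to untreated cells (1.25 ± 0.13). The last step was the single one above the pooled SD of 0.14, and the ranges there overlapped.

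ROR1 rose by 0.49 with FZD8_CRD (95% interval 0.27 to 0.72, adjusted p = 0.00109), with 0.70, 0.57 and 0.21 on the slides, and in the presence of Wnt3a the difference was 0.09 (adjusted p = 0.537). The call ended with spike-in scaling (0.10, adjusted p = 0.792), without slide 1 (0.39, adjusted p = 0.0694) and with the study's thresholds. It ended too with the mean of both probes (0.53, adjusted p = 0.0598). In that setting the slide 1 array of Wnt3a, not compared here, holds the brighter probe alone, and its part in this loss was not tested. The adjusted p over 23 alternatives ran from 0.000145 to 0.792. The difference in the Wnt3a response between FZD8_CRD and no agent was -0.40 (-0.72 to -0.08, adjusted p = 0.261), and without the slide 3 array of FZD8_CRD it was -0.52 (adjusted p = 0.0286), with a called Wnt3a response of -0.35 under FZD8_CRD (adjusted p = 0.024). On all arrays that response was -0.23 and not called, and the second probe had the opposite sign, 0.31 (adjusted p = 0.347). The difference with control siRNA in the presence of Wnt3a, 0.22, was called at 0.36 without the slide 2 array of Wnt3a (adjusted p = 0.0182). Control siRNA gave 0.29 against untreated cells (adjusted p = 0.0617), called with the slide as a block (adjusted p = 0.0294). With β-catenin siRNA the differences were -0.00 without and -0.19 with Wnt3a, neither called. With FZD8_CRD alone ALB, APOA1, TTR, SOX9, HNF4A and CD68 were lower and KRT19 and ACTA2 higher in the same arrays, the endothelial sum was lower, and their part in the ROR1 difference was not tested. A second probe, A_24_P410605, assigned to another ROR1 transcript, had means of -1.92 in untreated cells, -1.45 with Wnt3a (2 arrays), -1.36 with FZD8_CRD and -1.05 with both, and of -1.36, -1.01, -1.73 and -1.73 with control siRNA, control siRNA and Wnt3a, β-catenin siRNA, and β-catenin siRNA and Wnt3a. It was lower with β-catenin siRNA in the presence of Wnt3a by -0.72 (adjusted p = 0.0109), and higher by 0.56 both with control siRNA (adjusted p = 0.0263) and with FZD8_CRD (adjusted p = 0.0147). The probes thus had the same direction with FZD8_CRD against untreated cells, and a change of ROR1 with β-catenin siRNA was read by the second alone. Their r was 0.635 across condition means and 0.552 across 23 arrays, since 1 value of the second is missing.

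RYK, a Wnt-binding pseudokinase, was read by A_33_P3379371. It stood at 2.39, 2.40 and 2.50 in untreated cells, 2.73, 2.82 and 2.68 with Wnt3a, 2.72, 2.97 and 2.83 with FZD8_CRD, and 2.86, 3.06 and 2.90 with both. It stood at 2.60, 2.64 and 2.65 with control siRNA, 2.69, 2.86 and 2.71 with control siRNA and Wnt3a, 2.47 and 2.55 on slides 1 and 2 with β-catenin siRNA, where the slide 3 spot was an outlier and was left out, and 2.70, 2.71 and 2.67 with β-catenin siRNA and Wnt3a. The 3 untreated arrays and the slide 1 array of β-catenin siRNA were the 4 lowest, and all arrays with FZD8_CRD lay above all untreated ones. In the order of means FZD8_CRD with Wnt3a (2.94 ± 0.11) and FZD8_CRD (2.84 ± 0.13) came first, each further above the next than the pooled SD of 0.08, though ranges overlapped. Control siRNA with Wnt3a (2.75 ± 0.09), Wnt3a (2.74 ± 0.07), β-catenin siRNA with Wnt3a (2.69 ± 0.02) and control siRNA (2.63 ± 0.02) did not differ from each other in turn beyond it. The largest step, 0.12, led from control siRNA to β-catenin siRNA (2.51 ± 0.06, n = 2), without overlap, and untreated cells (2.43 ± 0.06) followed within the SD.

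RYK rose by 0.31 with Wnt3a on the scale of the 75th percentile (95% interval 0.16 to 0.46, adjusted p = 0.0176), with 0.34, 0.42 and 0.17 on the slides, but turned to -0.08 with spike-in scaling (adjusted p = 0.802). The call also ended without the slide 1 or slide 2 untreated array (adjusted p = 0.0744 and 0.0739), without the slide 2 array of Wnt3a (0.27, adjusted p = 0.123) and in a fit of the 6 arrays compared (adjusted p = 0.454). It ended too without slide 1 or 2 (adjusted p = 0.309 and 0.619) and with the study's thresholds, and over 23 alternatives the adjusted p ran from 0.00367 to 0.802. RYK rose by 0.41 with FZD8_CRD (0.26 to 0.56, adjusted p = 0.000156) and by 0.20 with FZD8_CRD in the presence of Wnt3a (0.05 to 0.35, adjusted p = 0.0344), and both ended with spike-in scaling (0.02, adjusted p = 0.963, and 0.11, adjusted p = 0.833). Each agent alone was therefore accompanied by more RYK signal, on 3 of 3 slides, and RYK read highest with both. The call with both agents also ended with quantile normalization (0.14, adjusted p = 0.134), with normexp background correction (adjusted p = 0.0837), with the deposited values (adjusted p = 0.0944) and in a fit of the 6 arrays compared (adjusted p = 0.123). It ended too without the slide 1 or 3 array of Wnt3a (adjusted p = 0.0904 and 0.113) or the slide 2 array of both agents (adjusted p = 0.184), and without any 1 slide (adjusted p from 0.1285 to 0.1404). The study's thresholds ended both FZD8_CRD calls. With β-catenin siRNA the RYK differences, -0.12 and -0.06, were not called, and with control siRNA the difference of 0.20 (adjusted p = 0.0516) was called with the slide as a block (adjusted p = 0.0132) and without the slide 3 untreated array (0.24, adjusted p = 0.037). It was called too with normexp correction, a filter on all 24 arrays, outlier spots kept, or only non-uniform spots left out, within a range of adjusted p from 0.0132 to 0.854. COL1A1 and ACTA2 rose with Wnt3a in the same arrays, ACTA2 by 0.31 (adjusted p = 0.0084), and ACTA2 rose by 0.30 with FZD8_CRD (adjusted p = 0.000624); the other 3 tested stellate markers were not called there, and the list medians were -0.14 and -0.16. With FZD8_CRD the hepatic markers, CD68 and the endothelial sum moved as given above. The part of these markers in the RYK values was not tested.

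LGR4, an R-spondin receptor, was read by A_24_P90216 on all 24 arrays. It stood at 1.30, 1.37 and 1.39 in untreated cells, 1.24, 0.91 and 1.37 with Wnt3a, 1.02, 0.98 and 0.92 with FZD8_CRD, and 1.06, 0.97 and 0.99 with both. It stood at 1.16, 1.21 and 1.22 with control siRNA, 0.86, 0.76 and 0.85 with control siRNA and Wnt3a, 1.42, 1.33 and 1.49 with β-catenin siRNA, and 1.05, 1.20 and 1.30 with β-catenin siRNA and Wnt3a. The 3 arrays of control siRNA with Wnt3a were the lowest of the 24. β-catenin siRNA (1.41 ± 0.08) and untreated cells (1.35 ± 0.05) headed the order. Control siRNA (1.20 ± 0.04), β-catenin siRNA with Wnt3a (1.18 ± 0.12) and Wnt3a (1.17 ± 0.24) followed, then FZD8_CRD with Wnt3a (1.01 ± 0.04) and FZD8_CRD (0.97 ± 0.05), and last control siRNA with Wnt3a (0.82 ± 0.05). The 3 steps between these levels exceeded the pooled SD of 0.11, with overlapping ranges at the middle one, and neighbours within a level did not differ beyond it.

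After control siRNA Wnt3a lowered LGR4 by 0.37 (95% interval -0.56 to -0.19, adjusted p = 0.0356), with -0.29, -0.45 and -0.38 on the slides. The Wnt3a difference was -0.18 in untransfected cells (adjusted p = 0.266), -0.23 after β-catenin siRNA (adjusted p = 0.373) and 0.03 with FZD8_CRD (adjusted p = 0.919). Between β-catenin siRNA and control siRNA these responses of LGR4 differed by 0.14 (adjusted p = 1), so the data do not show that they differ. LGR4 fell by 0.38 with FZD8_CRD (-0.57 to -0.20, adjusted p = 0.00192), lower on 3 of 3 slides, a call that held in all alternatives except the fold thresholds of the study's methods. It fell by 0.35 with control siRNA in the presence of Wnt3a (-0.54 to -0.16, adjusted p = 0.0203) and was higher by 0.36 with β-catenin siRNA than with control siRNA, both with Wnt3a (0.17 to 0.55, adjusted p = 0.012).

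Without Wnt3a LGR4 was higher by 0.22 with β-catenin siRNA than with control siRNA (0.03 to 0.40, adjusted p = 0.145), on 3 of 3 slides and without overlap of the groups. This was not called, except in a fit of the 6 arrays compared (adjusted p = 0.0443). Other settings bear on 3 of the LGR4 calls, and 2 more uncalled differences hung on 1 array. The Wnt3a difference in untransfected cells was called at -0.28 without the slide 3 array of Wnt3a (adjusted p = 0.0441), and that of FZD8_CRD in the presence of Wnt3a, -0.17, at -0.30 without the slide 2 array of Wnt3a (adjusted p = 0.00399). The study's thresholds ended all 3. The call of Wnt3a after control siRNA ended without any one of the 6 arrays compared, with adjusted p from 0.0658 to 0.170, and without any 1 slide (adjusted p from 0.0718 to 0.386), and it ended with quantile normalization (adjusted p = 0.0518), normexp correction (adjusted p = 0.0712), no filter (adjusted p = 0.0520) and spike-in scaling (-0.21, adjusted p = 0.942). The call of control siRNA with Wnt3a ended with spike-in scaling (-0.08, adjusted p = 0.903), normexp correction (adjusted p = 0.0593) and a fit of the 6 arrays compared (adjusted p = 0.270). It ended too without the slide 1 or 3 array of Wnt3a (adjusted p = 0.117 and 0.101) or the slide 2 or 3 array of control siRNA with Wnt3a (adjusted p = 0.110 and 0.0556), and without slide 1 or 3 (adjusted p = 0.302 and 0.130). The call of β-catenin siRNA with Wnt3a ended with spike-in scaling (0.16, adjusted p = 0.867), without the slide 2 array of control siRNA with Wnt3a (adjusted p = 0.0584) and without the slide 3 array of β-catenin siRNA with Wnt3a (adjusted p = 0.0756), and without any 1 slide (adjusted p from 0.0645 to 0.159). Their lowest adjusted p over 23 alternatives were 0.0167, 0.000364 and 0.0055. ALB fell with FZD8_CRD and with control siRNA, and rose by 1.19 with β-catenin siRNA in the presence of Wnt3a (adjusted p = 0.0164). In the presence of Wnt3a it was the 1 of 8 hepatic markers called with control siRNA and with β-catenin siRNA. KRT19 rose with FZD8_CRD. COL1A1 rose with Wnt3a after control siRNA, where the median of its list was -0.25. The part of these and the other markers given above was not tested.

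LGR6, the third R-spondin receptor, was read by A_23_P23839 on all 24 arrays, between -3.40 and -2.22. Its lowest value was the slide 1 untreated array and its highest the slide 3 array of control siRNA with Wnt3a. In every condition the slide 3 array read highest. Its means were -2.70 with control siRNA and Wnt3a, -2.75 with control siRNA, -2.80 with FZD8_CRD and Wnt3a, -2.81 with FZD8_CRD, -2.83 with β-catenin siRNA and Wnt3a, -2.88 with Wnt3a, -3.11 in untreated cells and -3.17 with β-catenin siRNA. No step in this order exceeded the pooled SD of 0.38. LGR6 was called in 0 of 12 comparisons by limma. With the slide as a block it was called with control siRNA (0.36, adjusted p = 0.0204), with FZD8_CRD (0.30, adjusted p = 0.0311) and, lower, with β-catenin siRNA (-0.43, adjusted p = 0.0148). The groups overlapped in each. With FZD8_CRD the differences on the slides were 0.58, -0.06 and 0.39, and the lowest difference over the alternatives was -0.09.

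With a second probe above background on 1 of 24 arrays and not kept, RSPO3, the ligand, was read by A_24_P106542 alone, on all 24 arrays. It stood at -3.27, -3.60 and -3.33 in untreated cells, -2.13, -2.51 and -2.39 with Wnt3a, -2.90, -3.35 and -2.47 with FZD8_CRD, and -2.55, -2.87 and -2.35 with both. It stood at -2.37, -3.22 and -2.65 with control siRNA, -2.32, -3.17 and -2.53 with control siRNA and Wnt3a, -3.33, -3.79 and -3.69 with β-catenin siRNA, and -3.10, -4.19 and -3.42 with β-catenin siRNA and Wnt3a. The slide 2 array read lowest in every condition, and the 3 arrays with Wnt3a lay above the 3 untreated ones. In the order of means Wnt3a (-2.34 ± 0.19), FZD8_CRD with Wnt3a (-2.59 ± 0.26), control siRNA with Wnt3a (-2.67 ± 0.44), control siRNA (-2.75 ± 0.44) and FZD8_CRD (-2.90 ± 0.44) formed 1 level. Untreated cells (-3.40 ± 0.17), β-catenin siRNA with Wnt3a (-3.57 ± 0.56) and β-catenin siRNA (-3.61 ± 0.24) formed a lower one. The step between the levels, 0.50, exceeded the pooled SD of 0.37, and no other step did, but the ranges on its sides overlapped.

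Wnt3a raised RSPO3 2.08-fold in untransfected cells, a difference of 1.06 (95% interval 0.47 to 1.65, adjusted p = 0.036), with 1.15, 1.09 and 0.94 on the slides. After control siRNA the Wnt3a difference was 0.07, after β-catenin siRNA 0.04 and with FZD8_CRD 0.32, none called. The difference between the responses with and without FZD8_CRD was -0.74 (-1.58 to 0.10, adjusted p = 0.476), and that between untransfected cells and control siRNA was not tested. The call of RSPO3 with Wnt3a ended without the slide 1 or 2 untreated array (1.12 and 0.96, adjusted p = 0.0825 and 0.134) or the slide 1 or 2 array of Wnt3a (0.95 and 1.14, adjusted p = 0.0915 and 0.113). It ended too without any 1 slide (adjusted p from 0.0609 to 0.324), with spike-in scaling (0.66, adjusted p = 0.217), with no filter (adjusted p = 0.0775) and in a fit of the 6 arrays compared (adjusted p = 0.271), over a range of adjusted p from 0.00101 to 0.324. ACTA2 and COL1A1 were higher with Wnt3a in the same arrays, by 0.31 and 1.86, as 2 of 5 stellate or fibroblast markers tested. COL1A1 was also higher with Wnt3a after control siRNA, where the median of its list was -0.25. ACTA2 and COL1A1 were higher with FZD8_CRD present, where that median was 0.06. RSPO3 was called in neither. The part of these markers was not tested.

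With β-catenin siRNA RSPO3 differed by -0.86 from control siRNA (-1.45 to -0.27, adjusted p = 0.0597), and by -0.90 in the presence of Wnt3a (-1.49 to -0.30, adjusted p = 0.0504), which did not pass the test. The values were lower on 3 of 3 slides in both, by -0.96, -0.57 and -1.04 and by -0.78, -1.02 and -0.89, and the groups with Wnt3a overlapped. With the slide as a block both were called (adjusted p = 0.00145 and 0.000897). The first was also called without slide 2 (-1.0012, adjusted p = 0.03835) or its control siRNA array (-1.1, adjusted p = 0.0337), and the other without the slide 1 array of β-catenin siRNA with Wnt3a (-1.13, adjusted p = 0.0226) or the slide 2 array of control siRNA with Wnt3a (-1.14, adjusted p = 0.024). Quantile normalization, the deposited values and the study's thresholds called both as well. With Wnt3a spike-in scaling, normexp correction, a floor of 1, a filter on all 24 arrays, outlier spots kept and only non-uniform spots left out did so too. In all, 6 of 23 alternatives called the first and 12 of 23 the other. Over the alternatives the adjusted p ran from 0.00145 to 0.402 and, with Wnt3a, from 0.000897 to 0.299. In these β-catenin siRNA comparisons CD14 and DES fell without and with Wnt3a, and the endothelial sum, carried by KDR, was higher. PECAM1 fell without Wnt3a, and with it COL1A1 fell and ALB rose. The part of these markers in the RSPO3 differences was not tested. Blocking also called RSPO3 with control siRNA (0.65, adjusted p = 0.00527) and with FZD8_CRD (0.49, adjusted p = 0.0158), where the adjusted p without it was 0.111 and 0.175, and quantile normalization and the deposited values called both. The first was also called without slide 2 (0.79, adjusted p = 0.0412). Across all 84 pairs of same-numbered arrays of 2 conditions, deviations from the condition means had a mean correlation of 0.390, against -0.194 for other numbers.

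Around these receptors, the other genes of the R-spondin axis were RSPO1, RSPO2, RSPO4, RNF43 and ZNRF3, of which RSPO4 was not tested. Counts in this and the next lists stand beside the shares of all genes given above for each comparison, 5.30% with Wnt3a alone and 41.3% with FZD8_CRD among them. RNF43, the ligase that R-spondins draw away, was the 1 of the 4 tested that rose with Wnt3a, by 0.73 (adjusted p = 0.000558) and after control siRNA by 1.02 (adjusted p = 9.8e-05). It rose by 0.81 with FZD8_CRD present (adjusted p = 0.000224), where RSPO1 fell. β-catenin siRNA lowered 2 of 4, RNF43 by 0.66 (adjusted p = 0.00028) and ZNRF3 by 0.50 (adjusted p = 0.00122), and the same genes in the presence of Wnt3a. FZD8_CRD lowered RNF43 and limma called RSPO2 lower, and the list medians were -0.51 without and -0.95 with Wnt3a. Where a gene passes the background test on only some arrays of a group, or on none, the fold is given as a lower bound against the detection limit of the dimmer arrays. RSPO2 was called lower with FZD8_CRD (at least 1.99-fold), with FZD8_CRD in the presence of Wnt3a (at least 2.50-fold) and with control siRNA (at least 1.82-fold). The filter kept it only through untreated cells and Wnt3a alone, the groups compared there, so these calls are not read as a change. RSPO1 was at least 3.01-fold lower with control siRNA than in untreated cells. After β-catenin siRNA limma called 0 of 4 with Wnt3a and 0 had an unadjusted p under 0.05. With control siRNA in the presence of Wnt3a it called 0 of 4, with 2 at an unadjusted p under 0.05.

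Of 11 antagonists, chaperones and relatives of LRP5 and LRP6, 7 were tested, and DKK4, SOSTDC1, LRP4 and NOTUM were not. With Wnt3a alone limma called 0 of 7, with 2 at an unadjusted p under 0.05, and after β-catenin siRNA 0 of 7, with 1. After control siRNA Wnt3a raised 1 of 7, SOST by 1.17 (adjusted p = 0.0422). With FZD8_CRD present it lowered 2 of 7, DKK1 by 0.88 (adjusted p = 0.00502) and APCDD1 at least 2.83-fold, with a list median of -0.75. With the slide as a block 2 were called with Wnt3a alone, KREMEN1 (0.24, adjusted p = 0.0204) and KREMEN2 (0.68, adjusted p = 0.0363). FZD8_CRD gave 4 calls of 7, beside the 41.3% and 36.4% of all genes given above: DKK1, SOST and APCDD1 lower and KREMEN2 higher, and the same 4 genes were called in the presence of Wnt3a. DKK1, a secreted inhibitor that binds LRP5 and LRP6, fell by 0.54 with FZD8_CRD (adjusted p = 0.018) and by 1.36 in the presence of Wnt3a (adjusted p = 9.54e-06). SOST, another LRP ligand, was in that comparison at least 3.72-fold lower and APCDD1, a membrane inhibitor, at least 5.65-fold lower. KREMEN2, a receptor for DKK1, rose by 1.31 with FZD8_CRD (adjusted p = 3.74e-05) and by 1.29 with control siRNA (adjusted p = 0.000283), and fell by 1.21 with β-catenin siRNA (adjusted p = 0.000574), where DKK1 fell by 0.60 (adjusted p = 0.0345). Together with Wnt3a that siRNA lowered SOST, at least 1.96-fold. Control siRNA also lowered SOST, and in the presence of Wnt3a it raised KREMEN2 alone.

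The LRP6 signalosome (3 Dishevelled genes, AXIN1, AXIN2, GSK3A, GSK3B, 4 casein kinase genes and CAPRIN2) was tested in full, 12 of 12. Wnt3a raised AXIN2 (0.37, adjusted p = 0.0462) and CSNK1G3 (0.28, adjusted p = 0.0328), and after control siRNA AXIN2 alone. After β-catenin siRNA and with FZD8_CRD limma called 0 of 12 with Wnt3a, with 3 and 1 at an unadjusted p under 0.05, and the block called CAPRIN2 with FZD8_CRD (0.31, adjusted p = 0.0428). β-catenin siRNA raised CSNK1G1, a casein kinase that phosphorylates LRP6, by 0.59 (adjusted p = 0.00178), and AXIN1 by 0.35 (adjusted p = 0.0415), and both rose in the presence of Wnt3a, where AXIN2 fell. FZD8_CRD raised DVL2, CSNK1G2 and CSNK1G3 and lowered AXIN2, and in the presence of Wnt3a it raised DVL1, CSNK1G1 and CSNK1G3 and lowered AXIN2 and CSNK1A1. Control siRNA raised DVL2 and lowered AXIN2, and with Wnt3a lowered AXIN1. List medians stayed between -0.01 and 0.14 in the 10 comparisons of conditions.

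Of 14 ligands and partners of the ROR, RYK and PTK7 receptors, 13 were tested, all but VANGL2. Wnt3a raised 3 of them in untransfected cells, WNT5A, PRICKLE2 and CTHRC1. WNT5A, a ligand of ROR2, rose by 0.79 (adjusted p = 0.0309), with 0.44, 1.36 and 0.57 on the slides. CTHRC1, a secreted protein that binds Wnt receptors, was at least 3.62-fold higher, and PRICKLE2, of the polarity pathway, rose by 0.78 (adjusted p = 0.0159). After control siRNA 3 were called higher (WNT5B, PRICKLE2 and CTHRC1) and WNT11 fell. WNT5B was above background on 3 arrays in all. The filter kept it through the group with control siRNA and Wnt3a, so its call is not read as a change. With FZD8_CRD present 2 rose, PRICKLE2 by 0.87 (adjusted p = 0.00586) and CTHRC1 at least 4.06-fold, and WNT11 fell by 1.13 (adjusted p = 0.00748). After β-catenin siRNA limma called 0 of 13, with 1 at an unadjusted p under 0.05. β-catenin siRNA gave 0 calls by limma without Wnt3a, with 4 at an unadjusted p under 0.05, and with the slide as a block it gave 2, CELSR3 (-0.23, adjusted p = 0.0364) and DAAM1 (0.35, adjusted p = 0.0116). With Wnt3a limma called 4 lower, WNT5A by 0.72 (adjusted p = 0.0295), FZD7 by 0.56 (adjusted p = 0.0172), CTHRC1 at least 5.15-fold and WNT5B at least 1.74-fold. The call of WNT5B again compares the group through which the filter kept it, and is not read as a change. WNT5A and its receptor ROR2 were thus both lower with β-catenin siRNA when Wnt3a was present, and WNT5A was not called without it. FZD8_CRD raised WNT5A by 0.96 (adjusted p = 0.000909), PRICKLE2 and FZD7, and lowered WNT11 by 1.77 (adjusted p = 1.03e-05), CELSR2 and CELSR3. Together with Wnt3a it raised PRICKLE2 and lowered WNT11, PRICKLE1 and CELSR3. Control siRNA raised PRICKLE1. In the presence of Wnt3a limma called WNT5B higher, again in the group through which the filter kept it.

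The genes whose log2 values ran most like each receptor over the arrays are given as a description, from 13066 candidates, without a test; arrays of 1 slide or condition share much, which such a coefficient includes. For LRP5 these were ORAI3 (Pearson r = 0.935), LSS (0.915) and ABCA2 (0.908), over 24 arrays. For LRP6, FAM149B1 (0.947) and C1R (0.887) were among them. For ROR1 they were NSUN2 (0.857), APOBEC3B (0.856) and CEP20 (0.855), and for ROR2 PODNL1 (0.935), ST3GAL5 (0.932) and NAGLU (0.920). RYK ran most like ERH (0.924), CHSY1 (0.921) and MXRA7 (0.910), over 23 arrays. LGR4 ran most like SYPL2 (0.918), MOB3B (0.906) and PRR15L (0.903), and LGR6 most like TTC36 (0.917), TH (0.895) and EWSAT1 (0.893). The coefficients of RSPO3 were the lowest, with SHROOM1 (0.828), LINC01119 (0.822) and P2RX2 (0.798). Among the 8 genes themselves LRP5 and LRP6 had the highest r, 0.760 over 24 arrays, and RYK and LGR4 the lowest, -0.725 over 23.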

How the data were processed

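Per the file headers, the intensity of each spot was background-subtracted and detrended within the array by Agilent Feature Extraction, with no normalization between arrays; the headers give version 10.7.1.1 and the authors' notes 10.7.3.1. In the deposited table the authors had scaled log2 values to each array's 75th percentile and then subtracted every probe's median; it served as an alternative. Intensities were divided by the 75th percentile of their array, floored and expressed as log2, and outlier spots were left out. Probes that passed the background test in every replicate of some condition were kept (31062), and the brightest stood for its gene (24643 genes). Of these, 15997 have a gene symbol and 8646 do not, and the shares of all genes include both kinds. A limma model of 8 group means was fitted to all genes, and p was adjusted over all of them (Benjamini-Hochberg); genes under 0.05 were called. R 4.3.3, limma 3.58.1, data.table (1.17.8), Python 3.11.15 and matplotlib 3.10.9 were used.

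Genes are named by a rule: all members, CTNNB1, called genes of 5 pathway lists, cell markers, and up to 3 genes among those most like each member. The members and lists were chosen with earlier results of these data known. Pairing by replicate number came from the sample labels and equals the slide; 82 of 84 same-numbered pairs correlated above 0.1, so a block was tried. Other alternatives were quantile, spike-in and normexp processing, deposited values, another floor and filters, mean of probes, outlier spots kept, only the compared arrays, the study's thresholds, and leaving out slides or arrays. Leaving out non-uniform spots only was added after seeing the data.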

Additional observations from a re-analysis of the deposited data

Results flagged for a closer look

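The Wnt3a response of RNF43 differed between β-catenin siRNA and control siRNA by -1.23 (limma adjusted p = 0.00128), with -1.40, -0.95 and -1.34 on slides 1, 2 and 3. It is the 1 gene of the pathway lists that this fit called for a difference in response. With the slide as a block AXIN2 was called too (-0.85, adjusted p = 0.0276), which the main fit did not call (adjusted p = 0.0512). The cause was not tested.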

How the results depend on the processing

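The number of members called depended on the settings. With Wnt3a in untransfected cells it was 2, and became 0 with spike-in scaling or the compared arrays only, 1 with no filter or the study's thresholds, and 4 with the mean of probes. Of those 4, ROR1 rests on an array where only its brighter probe has a value and is not read as a change; the block gave 3. RYK there turned to -0.084 with spike-in scaling. With Wnt3a after control siRNA the count of 1 became 0 with quantile, spike-in or normexp processing, no filter, or the study's thresholds. With control siRNA the count of 2 became 6 with the slide as a block, 3 with quantile, normexp or deposited values, the filter on all 24 arrays, outlier spots kept or only non-uniform spots left out, and 0 with spike-in scaling, the compared arrays only or the study's thresholds. Over all genes the 5319 called there (21.6%) became 7708 with the block (31.28%), and 1494, 3432 and 2662 in the last 3 settings. With control siRNA and Wnt3a the count of 3 became 0, 0 and 1 in these last settings, where the 2032 of all genes became 220, 0 and 1318, and 2 with normexp processing or no filter. With β-catenin siRNA the count of 1 became 3 with the block, 0 with spike-in scaling, and 2 with quantile or deposited values, the compared arrays only or the study's thresholds. With Wnt3a added the count of 2 became 1 with spike-in scaling, and that 1 was RSPO3. RSPO3 also made it 3 with quantile, normexp or deposited values, the other floor, the filter on all 24 arrays, outlier spots kept, only non-uniform spots left out, or the block. With FZD8_CRD the count of 5 became 3 with spike-in scaling or the compared arrays only and 0 with the study's thresholds; it was 7 with the block, 6 with quantile or deposited values and 4 with the mean of probes. With FZD8_CRD and Wnt3a the count of 4 became 1 with spike-in scaling or the study's thresholds and 3 with quantile, normexp or deposited values or the compared arrays only. Counts over all genes moved in these settings too. The block raised the share called from 5.30% to 10.93% with Wnt3a alone, from 10.2% to 16.09% with β-catenin siRNA, from 9.88% to 14.69% when Wnt3a was added, and from 41.3% to 52.42% with FZD8_CRD. Over the processing alternatives the genes called ran from 2 to 2688 with Wnt3a alone, 53 to 1191 after control siRNA, 0 to 297 after β-catenin siRNA, 0 to 3115 with Wnt3a in the presence of FZD8_CRD, 1494 to 7708 with control siRNA, 0 to 3498 with control siRNA and Wnt3a, 170 to 4126 with β-catenin siRNA, 601 to 3611 with Wnt3a added, 5475 to 12845 with FZD8_CRD and 2252 to 11448 with FZD8_CRD and Wnt3a. For the differences in response they ran from 0 to 142 (β-catenin siRNA) and 0 to 724 (FZD8_CRD). Among the 8 tested members the block changed no other call than those named in the text. In the pathway lists it added calls in further comparisons and removed none: the LRP antagonists went from 1 to 4 with β-catenin siRNA and Wnt3a, the signalosome from 2 to 5 with control siRNA, and the non-canonical partners from 6 to 9 with FZD8_CRD.

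Leaving out a slide or an array gave counts of 0 to 3 (Wnt3a alone), 0 to 0 (after control siRNA), 0 to 0 (after β-catenin siRNA), 0 to 2 (with FZD8_CRD), 0 to 3 (control siRNA), 0 to 4 (the same with Wnt3a), 1 to 2 (β-catenin siRNA), 1 to 3 (the same with Wnt3a), 2 to 5 (FZD8_CRD) and 2 to 5 (the same with Wnt3a). For the differences in response they were 0 to 0 (β-catenin siRNA) and 0 to 3 (FZD8_CRD). In the same order the genes called over all genes ran from 8 to 6064 (1304 in the main fit), 4 to 524 (464), 0 to 105 (10), 0 to 5103 (1922), 262 to 6751 (5319), 1 to 3838 (2032), 423 to 2283 (2464), 485 to 2501 (2430), 5942 to 11039 (10108) and 3859 to 9694 (8796), and for the differences in response from 0 to 9 (5) and 0 to 2813 (17). The cause was not tested.

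RNA was measured once per culture in a single line, at 1 time and 1 dose, so protein, receptor at the surface and signalling were not measured. With 3 arrays a condition small differences can be missed. Position on the slide and condition cannot be told apart, and the hybridisation of 1 probe cannot separate transcripts of a gene.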
